A study of Mus musculus with 8 samples.

Results

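The proteasome genes were examined in regulatory T cells (Tregs) sorted from the blood of mice that had gone through high-altitude de-acclimatization (HADA), the re-adaptation to normal oxygen after a stay at simulated altitude, and of control mice. Members were the protein-coding genes whose symbol begins with Psma, Psmb, Psmc, Psmd or Psme, and 46 of the 56980 genes of the deposited count table met this rule. Of these, 42 encode a subunit, an activator or an assembly chaperone found in most cells. Psma8 and Psmb11 encode tissue-restricted subunits, and Psmc3ip and Psme3ip1 share only the letters of the symbol. The HADA group held 4 libraries from male C57BL/6j mice, 8 weeks old when obtained, that were kept for 28 days under low pressure matching an altitude of 6000 m and were then moved to normoxia. The control group held 4 libraries from mice of the same strain that stayed in normoxia. The day after the return on which the cells were sorted, and how many animals gave 1 library, are not stated in the methods. Tregs, which the study defines in mice as CD4+CD25+ cells, were sorted by flow cytometry, and because they were few the cDNA was amplified by a low-input method.

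The proteasome is the protease that degrades proteins tagged with ubiquitin. Its 20S core is a barrel of alpha and beta rings, and the catalytic sites lie on beta subunits inside it. The 19S regulatory particle binds ubiquitinated proteins, removes the ubiquitin, unfolds them with a ring of ATPases and feeds them into the core. In lymphocytes the constitutive catalytic subunits Psmb5, Psmb6 and Psmb7 are in part replaced by Psmb8, Psmb9 and Psmb10, which form the immunoproteasome and are induced by interferon gamma. The transcription factors NRF1 (Nfe2l1) and, under oxidative stress, NRF2 (Nfe2l2) are known activators of proteasome genes.

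Total counts were between 22929193 and 28240337 in the HADA libraries and between 14452433 and 22584062 in control replicates 2 to 4. Control replicate 1 had 1477431, so at a given CPM its counting error was the largest. Of 40 subunit, activator and chaperone genes, 0 were at or below the receptor-gene background, described with the low control values, in control replicate 1. In control replicates 2 to 4 it was 25, 16 and 9. Levels are given as CPM, normalised read counts after TMM scaling to library size. A floor of 3 counts corresponded to 0.106 to 0.131 CPM of the unscaled total in HADA and to 2.03 in control replicate 1, and it covers counting error only. Counts on mitochondrial genes made up 5.02% to 7.59% of the HADA libraries and 0.636% to 3.81% of the control libraries. Of 8 Treg and T cell markers 7 were tested, and their summed level was 2043 to 5486 CPM in HADA and 290 to 1522 in control, the highest being control replicate 1. Foxp3, the defining Treg transcription factor, was listed at 0 in all 8 libraries, and other gene spans cover 100% of it. It therefore says nothing about the identity of the sorted cells. Il2ra, which encodes CD25, was at 163 to 748 CPM in HADA and at 178, 10.5, 7.2 and 59.5 in control replicates 1 to 4. In these bulk samples fewer cells of a type and less RNA per cell cannot be told apart.

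No proteasome gene passed the thresholds in the comparison of HADA with control Tregs. Of the 43 members tested with edgeR's quasi-likelihood test, 0 were higher and 0 were lower (adjusted p below 0.05, and beyond 1 on the log2 fold scale), while 1.65% of the 21991 genes tested were called higher and 0.477% lower. An unadjusted p below 0.05 was reached by 6 members, beside 26.7% of all tested genes. The direction was nevertheless uneven. The log2 fold change was positive for 36 of the 43 members, with a median of 1.45, while 50.2% of all tested genes were positive, with a median of 0.01. The 43 fold changes ranged from -2.13 for Psmd2 to 3.89 for Psmd3. The spread between libraries was larger in the control group. For the 40 tested subunit, activator and chaperone genes the median SD of log2 CPM was 0.89 in HADA and 2.62 in control, against 0.72 and 1.58 for all tested genes. Without control replicate 1 the control value was 2.10 for these genes and 0.63 for all tested genes.

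Control replicate 1 stood on the side of the HADA libraries, and the count of calls changed when it was left out. Without it 13 of 44 members tested were higher and 0 lower, beside 15.5% of all 24048 genes tested called higher and 19.7% lower. Their median log2 fold change was then 2.32, with 39 of 44 positive. These 13 were Psma1, Psma2, Psma4, Psma6, Psma7, Psmb9, Psmc1, Psmc3, Psmd3, Psmd5, Psmd10, Psmd14 and Psme4. With all 8 libraries the DESeq2 test called 7 members higher (Psma2, Psma4, Psma6, Psmd3, Psmd10, Psmd14 and Psme2) and 0 lower, beside 11.2% of all tested genes higher and 19.3% lower. In 5 members the lowest HADA library was above the highest control library (Psma4, Psma6, Psmb3, Psmb9 and Psme2), and in 0 members the groups were apart the other way. The same held for 9.13% and 5.7% of all tested genes. Without control replicate 1 the groups were apart, with HADA higher, in 18 members, beside 18.4% of all tested genes.

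**Figure D1:**
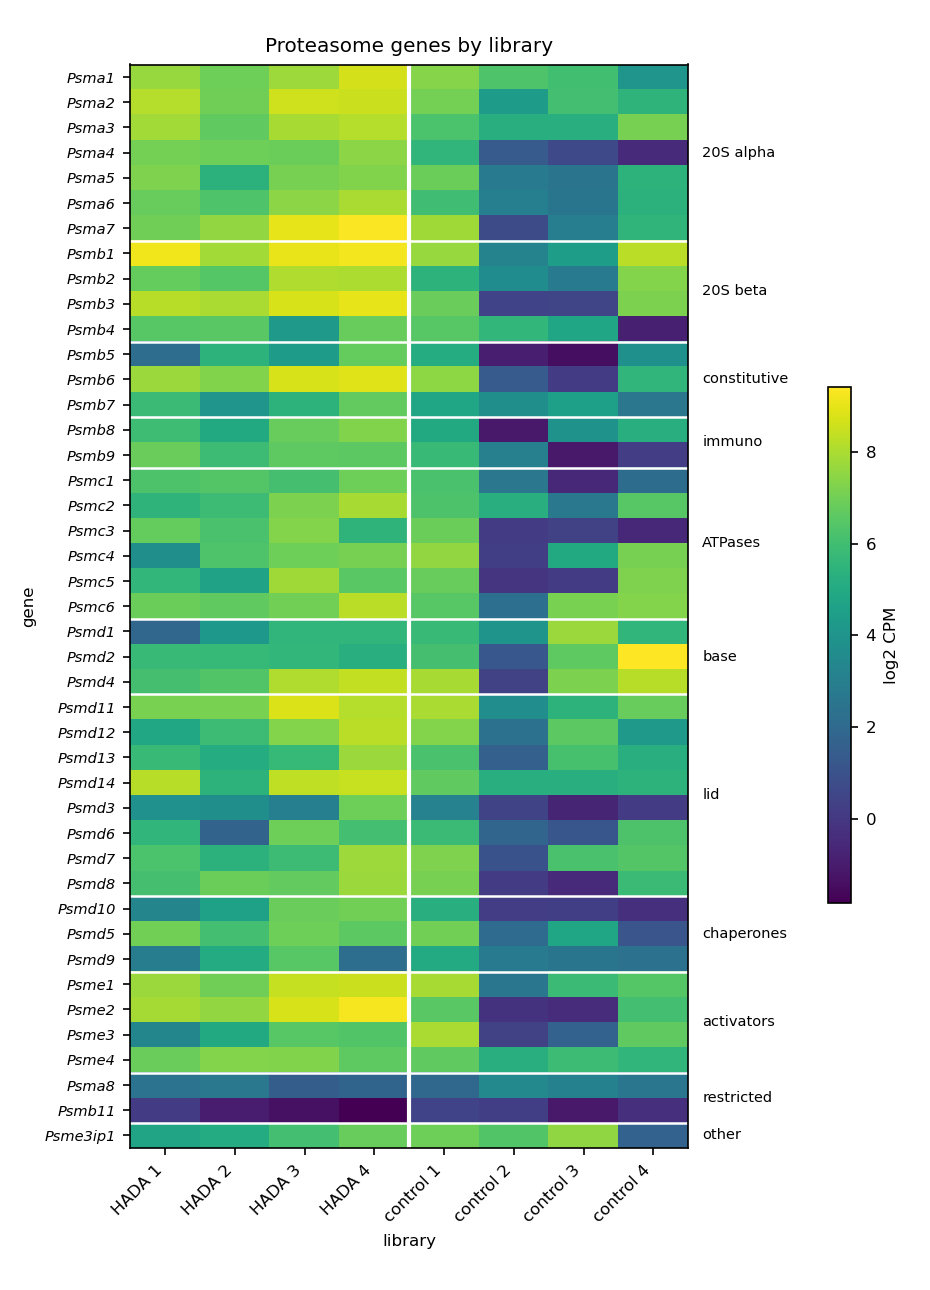
Level of the 43 tested proteasome genes as log2 CPM (colour) in each of the 4 HADA and 4 control libraries (columns), with genes in rows grouped by subcomplex. The HADA columns and control 1 are mostly light, while control 2, 3 and 4 hold dark cells at different genes.

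The promoters of the members were searched for letters linked to NRF1 and NRF2 and to interferon signalling, in 300 bases from 250 before to 50 after each annotated start (GRCm39, GENCODE vM39), on both strands. The antioxidant response element core TGACNNNGC was present in 7 of 46 member promoters (15.2%) and in 12.5% of 21618 promoters of protein-coding genes. The gamma-activated sequence TTCNNNGAA was in 4 (8.70%) beside 8.85%, the interferon-stimulated response element core GAAANNGAA in 7 (15.2%) beside 8.78%, and the CCAAT box, which is short enough to be frequent, in 19 (41.3%) beside 39.9%. The 7 promoters with the antioxidant core were those of Psmb2, Psmb5, Psmb6, Psmc6, Psmd7, Psmd9 and Psmd12. The share of members lay near that of all promoters for the antioxidant core, the gamma-activated sequence and the CCAAT box, and no test was made for any motif. The 250 bases upstream of the start are shown for Psmb5 and Psmb6, the constitutive catalytic subunits with an antioxidant core close to the start, for Psma4, the alpha subunit with the largest fold change, and for Psmd3, the member with the largest fold change, with matches to the antioxidant core, the interferon element and the gamma-activated sequence in capitals.
Psmb5, chr14:54855482-54855731, minus strand: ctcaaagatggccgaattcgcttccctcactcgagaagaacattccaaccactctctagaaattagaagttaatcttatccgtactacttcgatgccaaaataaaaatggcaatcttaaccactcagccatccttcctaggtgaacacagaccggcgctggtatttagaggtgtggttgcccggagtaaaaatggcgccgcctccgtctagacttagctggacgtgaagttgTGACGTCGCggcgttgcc
Psmb6, chr11:70415933-70416182, plus strand: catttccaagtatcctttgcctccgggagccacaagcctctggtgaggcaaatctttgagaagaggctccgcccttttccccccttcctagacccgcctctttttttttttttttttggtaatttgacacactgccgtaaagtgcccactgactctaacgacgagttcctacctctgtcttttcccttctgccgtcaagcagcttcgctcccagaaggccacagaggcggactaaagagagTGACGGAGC
Psma4, chr9:54857817-54858066, plus strand: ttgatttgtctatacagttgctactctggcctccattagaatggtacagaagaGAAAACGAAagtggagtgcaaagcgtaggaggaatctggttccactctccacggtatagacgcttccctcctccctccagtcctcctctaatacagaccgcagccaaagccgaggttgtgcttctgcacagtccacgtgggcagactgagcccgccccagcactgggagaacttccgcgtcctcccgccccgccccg
Psmd3, chr11:98573112-98573361, plus strand: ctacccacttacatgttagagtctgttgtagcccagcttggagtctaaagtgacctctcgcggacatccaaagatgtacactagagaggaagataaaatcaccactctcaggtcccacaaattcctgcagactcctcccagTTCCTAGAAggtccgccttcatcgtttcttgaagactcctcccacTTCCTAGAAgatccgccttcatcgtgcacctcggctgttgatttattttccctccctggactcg
In Psmb5 the match begins 18 bases and in Psmb6 9 bases before the start, and Psmd3 holds the same gamma-activated letters at 109 and 64 bases before it, with a further match 25 bases after it. Psma4 carries 1 interferon element, 197 bases before the start. Their levels follow with their subcomplexes, and a match of letters is a description of the sequence only.

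The alpha ring of the 20S core, whose 7 subunits form the gate of the barrel, had positive fold changes throughout. The log2 fold changes of Psma1 to Psma7 ran from 1.5 to 3.43 with a median of 2.15, and 0 of 7 passed the thresholds. Psma4 (ENSMUSG00000032301, GRCm39 chr9:54858074-54865314) had the largest. Its level was 134, 122, 118 and 174 CPM in HADA replicates 1 to 4 and 47.8, 2.50, 1.47 and 0.637 CPM in control replicates 1 to 4. The groups did not overlap, and control replicate 1 lay far above the other control libraries. In control replicates 3 and 4 Psma4 was at or below the receptor-gene background. The log2 fold change was 3.43 ± 1.29 (SE, edgeR adjusted p = 0.136), and 6.63 ± 0.79 without control replicate 1 (edgeR adjusted p = 0.0045). Psma5 had the smallest fold change of the ring. Its HADA levels were 151, 41.5, 139 and 157 CPM and its control levels 118, 7.17, 5.52 and 43.4 CPM. HADA replicate 2 fell below control replicates 1 and 4, so that the groups overlapped (log2 fold change 1.5 ± 1.02, SE, edgeR adjusted p = 0.328, and 2.82 without control replicate 1). Psma6 was also apart between the groups, from 79.1 to 258 CPM in HADA and from 5.62 to 61.5 CPM in control (edgeR adjusted p = 0.14). Reads of Psma5 may be shared with the pseudogene Psma5-ps, since the treatment of reads with several matches is not stated.

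The structural beta subunits Psmb1, Psmb2, Psmb3 and Psmb4, which have no catalytic site, had a median log2 fold change of 1.76, with 0 of 4 past the thresholds. Psmb3 had the largest value. It was at 299.96, 253, 428 and 509 CPM in HADA and at 115, 1.25, 1.33 and 148 CPM in control. Control replicates 1 and 4 were far above control replicates 2 and 3, and all 4 stayed below HADA (log2 fold change 2.49 ± 1.29, SE, edgeR adjusted p = 0.225). Psmb4 had the smallest value. Its HADA levels were 91.4, 92.8, 18.1 and 113 CPM and its control levels 88.9, 49.6, 28.2 and 0.464 CPM. Here the lowest library was control replicate 4 and not control replicate 2 or 3, and the groups overlapped (log2 fold change 0.92 ± 1.12, SE, edgeR adjusted p = 0.584, and 1.77 without control replicate 1).

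Among the constitutive catalytic subunits Psmb5 and Psmb6 were low in control replicates 2 and 3, while Psmb7 was lowest in control replicate 4. Psmb5, which carries the chymotrypsin-like site, was at 4.42, 43.3, 19.8 and 108 CPM in HADA and at 34.8, 0.438, 0.279 and 14.1 CPM in control. HADA replicate 1 lay below control replicates 1 and 4. Psmb6, which carries the caspase-like site, was at 213, 156, 424 and 468 CPM in HADA and at 181, 2.54, 0.978 and 47.6 CPM in control. Only control replicate 1 reached into the HADA range. Psmb7, with the trypsin-like site, was at 57.4, 16.3, 43.5 and 106 CPM in HADA and at 28, 13.5, 22.8 and 6.08 CPM in control. This range was narrower than for Psmb5 and Psmb6, but Psmb7 was at or below the receptor-gene background in control replicates 2 and 4. The log2 fold changes were 1.85 ± 1.41 for Psmb5, 2.45 ± 1.29 for Psmb6 and 1.67 ± 0.86 for Psmb7 (SE, edgeR adjusted p = 0.38, 0.23 and 0.223), with a median of 1.85. Leaving out control replicate 1 gave 3.26, 4.31 and 2.12 (edgeR adjusted p = 0.151, 0.0503 and 0.0731), with a median of 3.26, and leaving out HADA replicate 4 gave 0.95 for Psmb5 and a median of 1.27. As for Psma5, reads may be shared with pseudogenes, namely Psmb5-ps for Psmb5, Psmb6-ps and Psmb6-ps2 for Psmb6, and Psmb7-ps2 for Psmb7.

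Of the immunoproteasome subunits only 2 of 3 could be measured. Psmb8 (ENSMUSG00000024338, GRCm39 chr17:34416695-34420428), the counterpart of Psmb5, was at 60.9, 32.3, 111 and 157 CPM in HADA and at 31.7, 0.376, 15.1 and 37.2 CPM in control. HADA replicate 2 lay between control replicates 1 and 4, and the groups overlapped by that library alone. Psmb9 (ENSMUSG00000096727, GRCm39 chr17:34400961-34406738), the counterpart of Psmb6, was at 115, 58.6, 99.6 and 95 CPM in HADA and at 53.4, 8.30, 0.384 and 1.04 CPM in control. Its groups did not overlap, although HADA replicate 2 and control replicate 1 lay close together. The log2 fold change was 2.11 ± 1.11 for Psmb8 (SE, edgeR adjusted p = 0.228) and 2.57 ± 1.28 for Psmb9 (SE, edgeR adjusted p = 0.21). Without control replicate 1 Psmb9 was called higher, at 5.01 ± 1.18 (SE, edgeR adjusted p = 0.0189), and Psmb8 was not. Other gene spans cover 57.3% of Psmb8, and since wholly covered genes such as Foxp3 were listed at 0, its counts may be incomplete. Psmb10 (ENSMUSG00000031897, GRCm39 chr8:106662367-106665076), the counterpart of Psmb7, was listed at 0 in all 8 libraries. Its whole span lies within that of another gene, so this 0 is no measure of its expression.

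The exchange of catalytic subunits was read from ratios of counts within a library, which do not depend on how libraries are scaled to each other. Psmb8 to Psmb5 was 13.7, 0.747, 5.59 and 1.45 in HADA replicates 1 to 4 and 0.912, 0.862, 50.8 and 2.64 in control replicates 1 to 4. Both groups spread over more than an order of magnitude, and the mean log2 ratio was 1.60 ± 1.89 in HADA and 1.68 ± 2.76 in control (SD, n = 4), a difference of -0.08. Psmb9 to Psmb6 was 0.54, 0.377, 0.235 and 0.203 in HADA and 0.297, 3.26, 0.404 and 0.0225 in control. The HADA libraries lay within the control range, with a mean log2 ratio of -1.67 ± 0.65 in HADA and -1.71 ± 2.94 in control (SD, n = 4), a difference of 0.04. Psmb8 and Psmb9 together to Psmb5 and Psmb6 together, chosen after the values were seen, were at 0.809, 0.457, 0.475 and 0.438 in HADA and at 0.396, 2.91, 12.1 and 0.62 in control. The mean log2 ratio was -0.93 ± 0.42 in HADA and 0.78 ± 2.25 in control (SD, n = 4), a difference of -1.70 with overlapping groups. The sum over all 3 pairs was 0.37 to 0.64 in HADA and 0.35 to 0.641 in control, but it has no Psmb10 counts in its numerator while Psmb7 stays in its denominator, so it is no measure of exchange. Psmb5 was at or below the receptor-gene background described with the low control values in control replicates 2 and 3 (14 and 8 counts), Psmb8 in control replicate 2 (12 counts) and Psmb9 in control replicates 3 and 4 (11 and 18 counts), so these control ratios and their SD rest on members at background level. With an SD of up to 2.94 between control libraries, a change in subunit exchange was not detectable, which does not show that there was none.

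**Figure D2:**
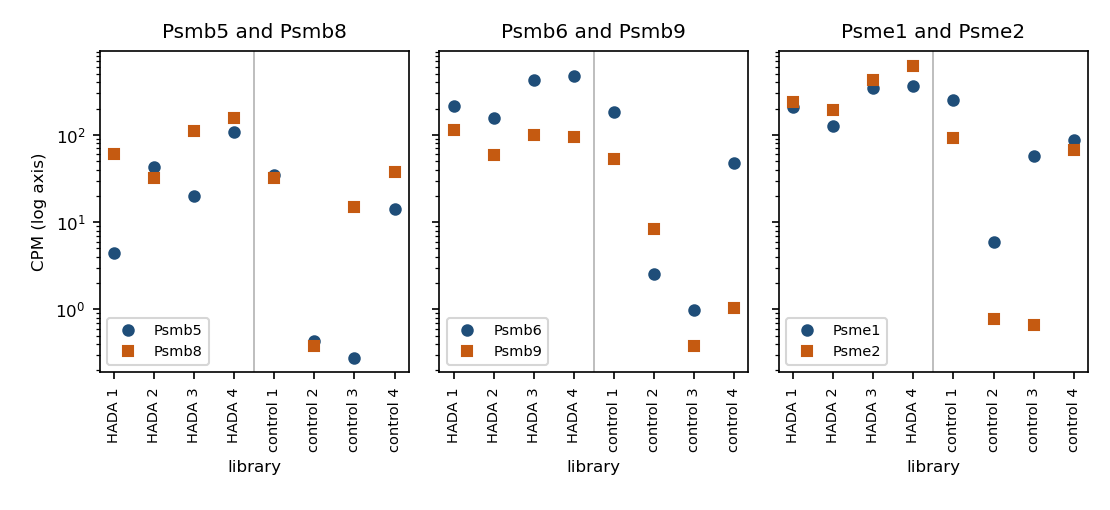
CPM (log axis) of Psmb5 with its immunoproteasome counterpart Psmb8, of Psmb6 with Psmb9, and of the activator subunits Psme1 and Psme2 in each library (points, 1 per gene and library). In control 2 and control 3 at least 1 gene of each pair lies below 10 CPM. Psme2 lies above Psme1 in 4 of 4 HADA libraries and below it in 4 of 4 control libraries. In control 2 and control 3 Psme2 was at or below the receptor-gene background.

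In the base of the 19S particle the ATPases Psmc1 to Psmc6, which unfold the substrate, had a median log2 fold change of 0.98, with 5 of 6 positive and 0 past the thresholds. Psmc1 was at 77.2, 84.4, 68.1 and 120.5 CPM in HADA and at 72.7, 6.04, 0.594 and 4.29 CPM in control. The HADA libraries were close together, and control replicate 1 lay among them (log2 fold change 2.09 ± 1.2, SE, edgeR adjusted p = 0.26). Without that library it was called higher, at 4.74 ± 0.93 (SE, edgeR adjusted p = 0.012). Psmc4 was at 13.6, 80.5, 122 and 139 CPM in HADA and at 190.2, 1.10, 31.8 and 136 CPM in control. The highest library was a control, and the log2 fold change of -0.01 ± 1.16 (SE, edgeR adjusted p = 0.994) changed sign under several alternatives. Other gene spans cover 37.0% of Psmc3.

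Among the remaining base subunits Psmd1 and Psmd2 had negative fold changes. Psmd2, the scaffold that holds ubiquitin-binding proteins, was at 56.1, 52.4, 49.2 and 38.0 CPM in HADA and at 68.4, 2.19, 98.5 and 684 CPM in control. The HADA libraries were alike, and the highest and the lowest library were both controls. The log2 fold change of -2.13 ± 1.19 (SE, edgeR adjusted p = 0.249) rested on control replicate 4 and was -0.15 without it. Psmd1, the other large scaffold, was named after its value was seen. It was at 3.59, 18.1, 47.3 and 47.6 CPM in HADA and at 53.4, 15.6, 212 and 46.8 CPM in control (log2 fold change -1.49 ± 1.02, SE, edgeR adjusted p = 0.332). In HADA replicate 1 and control replicate 2 Psmd1 was at or below the receptor-gene background. Psmd4, a ubiquitin receptor, was at 68.2, 81.0, 274 and 331 CPM in HADA and at 243, 1.19, 146 and 297 CPM in control. Control replicate 2 stood alone, and the log2 fold change was 0.13 ± 1.12 (SE, edgeR adjusted p = 0.942). Psmd1 and Psmd2 were the 2 lowest of the 40 subunit, activator and chaperone genes.

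The 8 lid subunits, which include the deubiquitinase Psmd14, had positive fold changes from 0.36 to 3.89 with a median of 1.14, and 0 passed the thresholds. Psmd3 (ENSMUSG00000017221, GRCm39 chr11:98573380-98586805), a structural lid subunit, had the largest value of all members. It was at 14.3, 13.4, 8.03 and 120.4 CPM in HADA and at 8.70, 1.28, 0.524 and 0.985 CPM in control. In control replicates 2 to 4 Psmd3 was at or below the receptor-gene background. HADA replicate 4 was far above the other HADA libraries, and without it the log2 fold change was 2.28 in place of 3.89 ± 1.30 (SE, edgeR adjusted p = 0.113). Without control replicate 1 it was called higher, at 5.53 ± 1.29 (SE, edgeR adjusted p = 0.0182), and the median of the lid was 2.12. Psmd14 was at 292, 43.0, 325 and 361 CPM in HADA and at 102, 37.5, 38.1 and 43.7 CPM in control. HADA replicate 2 lay at the control level, while the other HADA libraries were above every control (log2 fold change 2.21 ± 0.83, SE, edgeR adjusted p = 0.134). Psmd7 had the smallest fold change of the lid, with HADA levels of 75.0, 42.5, 58.6 and 220.2 CPM and control levels of 149.8, 1.88, 73.7 and 84.0 CPM. As for Psmd4, only control replicate 2 was low (log2 fold change 0.36 ± 1.04, SE, edgeR adjusted p = 0.826).

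Psmd5, Psmd9 and Psmd10 are chaperones that help build the base and are not part of the finished particle. Psmd10, also known as gankyrin, was at 9.63, 24.1, 116 and 131 CPM in HADA and at 37.3, 1.06, 1.08 and 0.695 CPM in control. Control replicate 1 lay inside the HADA range and the other controls near 1 CPM (log2 fold change 2.86 ± 1.44, SE, edgeR adjusted p = 0.214). Psmd5 was at 128, 66.3, 122 and 94.6 CPM in HADA and at 132, 4.2, 27.5 and 2.09 CPM in control. Its highest library was control replicate 1, and its log2 fold change was 1.32 ± 1.12 (SE, edgeR adjusted p = 0.43). Without control replicate 1 both were called higher, at 6.35 ± 1.2 and 3.32 ± 1.01 (SE, edgeR adjusted p = 0.011 and 0.0377). Psmd10 was at or below the receptor-gene background in control replicates 2 to 4, and Psmd5 in control replicates 2 and 4.

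Taken as larger units, the 20S core had 16 tested genes, all 16 with a positive fold change and a median of 1.98. The tissue-restricted Psma8 and Psmb11, both with negative fold changes, were not counted in the core. The 19S particle had 17 tested genes, 14 positive, with a median of 0.96. Across libraries, the median log2 CPM of the core genes was 7.32 ± 0.62 in HADA and 4.42 ± 1.74 in control (SD, n = 4), and that of the 19S particle 6.59 ± 0.92 and 4.95 ± 2.32. The core thus showed a wider gap between the groups than the 19S particle, with no test of this difference.

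**Figure D3:**
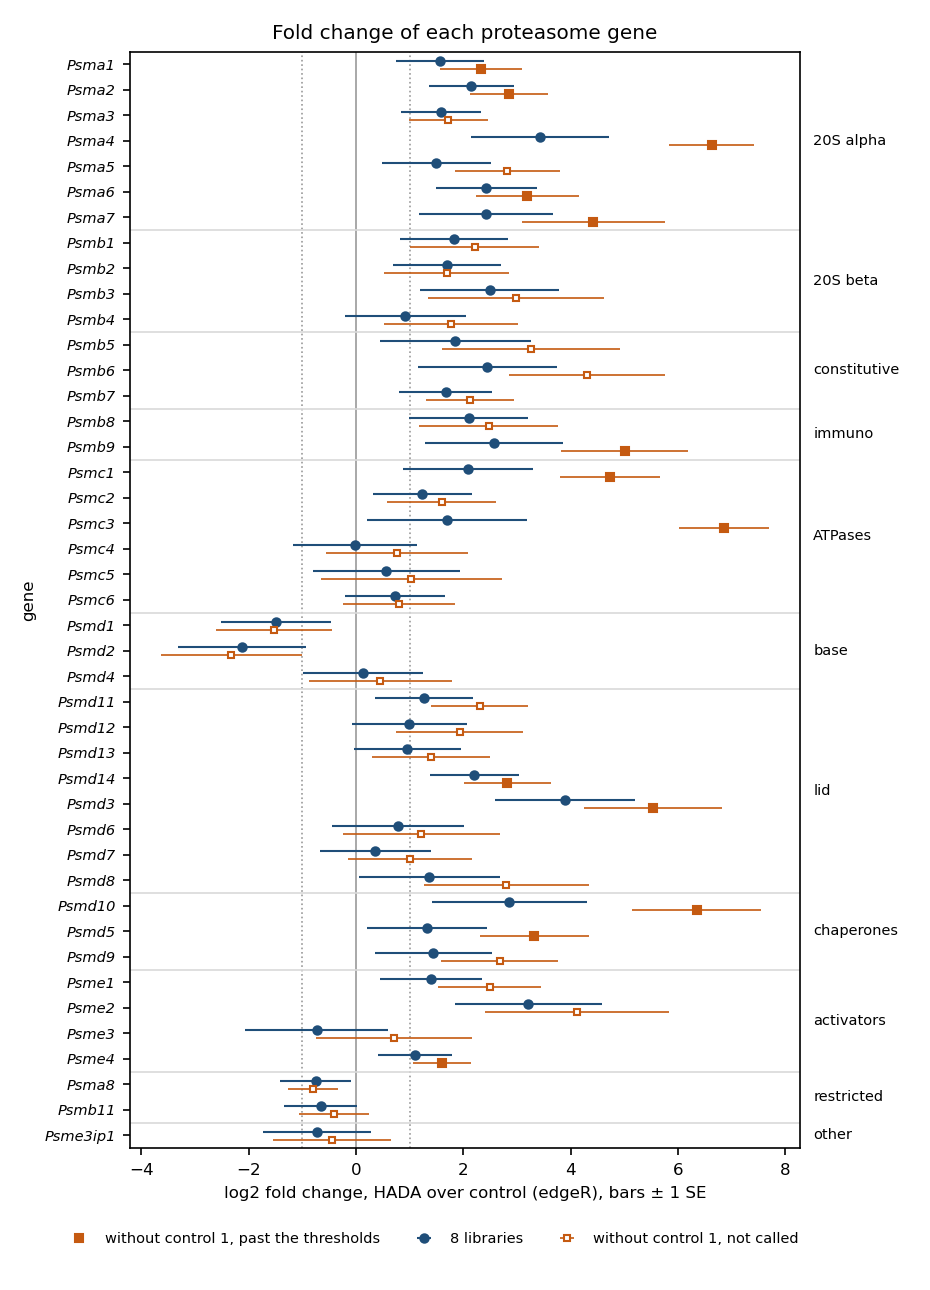
Log2 fold change of HADA over control from edgeR for each tested proteasome gene, with bars of 1 SE, from all 8 libraries (circles) and without control 1 (squares, filled where past the thresholds). The 16 core genes, which leave out the tissue-restricted Psma8 and Psmb11, lie right of 0. Psmd1 and Psmd2 lie left of -1, and filled squares mark the 13 genes called without control 1.

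The activators open the core in place of, or together with, the 19S particle. Psme1 and Psme2 together form PA28 alpha-beta, which is induced by interferon gamma like the immunoproteasome. Psme1 was at 210.5, 126, 344 and 364 CPM in HADA and at 249, 5.92, 57.2 and 87.3 CPM in control. Psme2 (ENSMUSG00000079197, GRCm39 chr14:55824898-55828570) was at 239, 194, 423 and 623 CPM in HADA and at 92.0, 0.783, 0.664 and 66.6 CPM in control. Psme1 overlapped between the groups through control replicate 1, and Psme2 did not overlap. The log2 fold change was 1.39 ± 0.95 for Psme1 (SE, edgeR adjusted p = 0.331; 2.49 without control replicate 1) and 3.22 ± 1.37 for Psme2 (SE, edgeR adjusted p = 0.166, DESeq2 adjusted p = 0.0221). Within libraries the ratio of Psme2 to Psme1, examined after the values were seen, was 1.14, 1.54, 1.23 and 1.71 in HADA and 0.371, 0.135, 0.0119 and 0.763 in control. The mean log2 ratio was 0.47 ± 0.27 in HADA and -2.78 ± 2.62 in control (SD, n = 4), and the groups did not overlap, also for control replicate 1. Psme2 was at or below the receptor-gene background in control replicates 2 and 3. The ratios of those libraries, and with them the control mean and SD, rest on a member at background level. Psme2b, a near copy of Psme2, was listed at 0 in every library, with 100% of its span inside another gene, and how reads matching both were assigned is not stated.

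Psme3, the nuclear activator PA28 gamma, and Psme4, the activator PA200, differed from this pair. Psme3 was at 9.82, 32.2, 90.4 and 81.5 CPM in HADA and at 252, 1.19, 3.11 and 100.5 CPM in control. Its highest libraries were control replicates 1 and 4, and its log2 fold change was -0.73 ± 1.33 (SE, edgeR adjusted p = 0.721) and 0.71 without control replicate 1. Psme4 was at 114, 162, 155 and 97.5 CPM in HADA and at 103, 36.9, 58.9 and 47.4 CPM in control. It was the activator with the tightest values (log2 fold change 1.10 ± 0.69, SE, edgeR adjusted p = 0.296, and 1.60 without control replicate 1, edgeR adjusted p = 0.0497). Psme4 was at or below the receptor-gene background in no control library, which does not place it far above. In control replicate 2, 33 of the 40 subunit, activator and chaperone genes were at or below 3 times that background.

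The tissue-restricted subunits are given for comparison, since Psma8 belongs to the testis and Psmb11 to the cortical epithelium of the thymus. Psma8 was at 2.66 to 6.16 CPM in HADA and at 3.73 to 11.1 CPM in control, and Psmb11 at 0.18 to 1.03 CPM and 0.384 to 1.24 CPM. Both had negative log2 fold changes, -0.75 ± 0.66 and -0.66 ± 0.68 (SE, edgeR adjusted p = 0.45 and 0.516), with overlapping groups. Psme3ip1, which binds Psme3 and is no subunit, had a log2 fold change of -0.72 ± 1.0 (SE, edgeR adjusted p = 0.637). Psmc3ip, a factor of meiotic recombination, had 224 and 438 counts in HADA replicates 3 and 4 and too few elsewhere to be tested.

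The low control values were set beside the level of genes with no known use in T cells in the same library. This background was the count per kilobase of gene span over 1393 olfactory and vomeronasal receptor genes, multiplied by the span of each proteasome gene. It took 0.0936% to 0.229% of the counts in HADA and 0.0778%, 0.914%, 0.446% and 0.196% in control replicates 1 to 4. Of the 40 subunit, activator and chaperone genes measured, 2, 0, 0 and 1 were at or below it in HADA replicates 1 to 4 and 0, 25, 16 and 9 in control replicates 1 to 4. The median gene lay 26.0 to 115 times above it in HADA, 134 times above it in control replicate 1, and at 0.74, 1.56 and 15.4 times its value in control replicates 2 to 4. Which genes were at or below it differed by library. Psmc3, Psmd3, Psmd9 and Psmd10 were at or below the background in all of control replicates 2 to 4, 31 genes were so in at least 1 of them, and 9 in none (Psma1, Psma2, Psma3, Psmb1, Psmb6, Psmc2, Psmd14, Psme1 and Psme4). Together the 40 genes took 0.356% to 0.579% of all counts in HADA and 0.487%, 0.0988%, 0.178% and 0.269% in control replicates 1 to 4. Only control replicate 1 lay within the HADA range. After the background had been subtracted the median log2 fold change of these genes was 1.29, while the median of all genes tested moved to 1.0, and that of the 19S particle was 0.20.

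**Figure D4:**
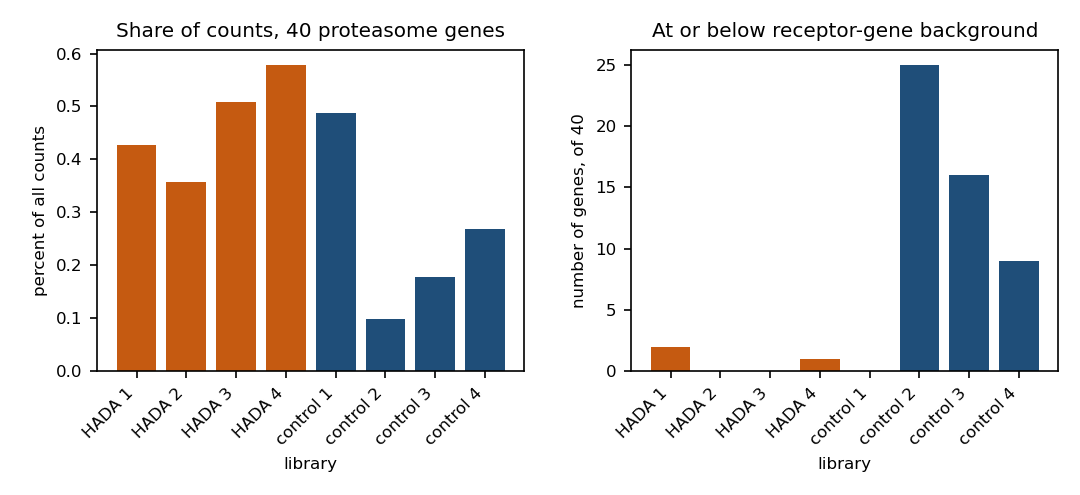
Left, percent of all counts that fell on the 40 measured subunit, activator and chaperone genes in each library (bars). Right, number of these 40 genes at or below the level expected from olfactory and vomeronasal receptor genes in the same library. Control 1 resembles the HADA libraries in both, and control 2 has 25 genes at or below background.

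Among the controls, the summed levels of the myeloid, B cell and platelet markers were also highest in control replicate 1. The summed level of the myeloid list, of which 8 of 9 genes were tested, was 1612 to 4322 CPM in HADA and 52.0 to 1880 CPM in control, and that of the B cell list, 3 of 4 tested, was 850.1 to 2904 CPM and 75.1 to 2271 CPM. The platelet list, 4 of 4 tested, ran from 267 to 1661 CPM in HADA and from 42.3 to 470 CPM in control. The erythroid list, 5 of 6 tested, differed the other way, at 145 to 2806 CPM in HADA and 1025 to 28314 CPM in control, with overlapping ranges and control replicate 1 highest. Of the CD8 T and NK list, 7 of 8 tested, Cd8b1 was called higher. The log2 fold changes of Prf1 and Gzmb were negative, -3.02 and -0.64, and those of the other tested genes were positive. The DESeq2 test called Cd8a, Cd8b1 and Nkg7 higher (DESeq2 adjusted p = 0.000507, 3.16e-07 and 0.0385) and Prf1 lower (DESeq2 adjusted p = 0.0268). Of all tested genes it called 11.2% higher and 19.3% lower. The sum of this list was 94.0 to 952 CPM in HADA and 6.53 to 201 CPM in control, with control replicate 1 at 101. In HADA replicate 4 Nkg7 and Gzma alone were at 425 and 326 CPM. Alas2, Ms4a1 and Itgam were listed at or near 0 with their spans covered by other genes. The part of these cells in the levels of the proteasome genes was not tested.

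Genes that assemble, feed and regulate the proteasome gave a similar count. Of 41 listed genes 39 were tested, 0 were higher and 0 lower in the same edgeR fit, and 35 were positive, with a median log2 fold change of 1.05. In 8 of the 39 the groups were apart with HADA higher, beside 9.13% of all tested genes. The chaperones that assemble the core had the highest median of the 9 lists, 3.16. Psmg1 was at 50.5, 8.33, 102 and 25.2 CPM in HADA and at 5.59, 1.94, 1.15 and 1.39 CPM in control, so that every HADA library was above every control (log2 fold change 4.29, edgeR adjusted p = 0.0592). Sem1, a small lid subunit with a symbol outside the rule, was at 182 to 323 CPM in HADA and at 6.11 to 70.8 CPM in control. Nfe2l1 had a log2 fold change of 1.63 (edgeR adjusted p = 0.346). Nfe2l2 was at 175, 145, 334 and 303 CPM in HADA and at 131, 4.92, 124 and 71.2 CPM in control (log2 fold change 1.53, edgeR adjusted p = 0.268). The groups did not overlap for Nfe2l2, with 145 CPM against 131 CPM at the nearest libraries. Tap1 and Tap2, which carry proteasome products to class I molecules, had log2 fold changes of 0.98 and 0.62 (edgeR adjusted p = 0.611 and 0.747), and without control replicate 1 Tap1 was called higher, at 3.64 (edgeR adjusted p = 0.04999). Psmg1 and Sem1 were named after their values were seen.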

How the data were processed

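RNA-seq of sorted peripheral blood Tregs was analysed in 4 HADA and 4 control libraries, grouped and numbered by their labels. The values are raw counts per gene as deposited. Per the methods, the authors ran FastQC and Trimmomatic on the reads, STAR for alignment to GRCm39 and featureCounts for counting, whose strand and multi-match settings are not given in the sources used here. The counted length equals the whole span for 100% of the genes, so introns are included. Symbols came from GENCODE vM39, in which 98.7% of identifiers were found. Gene coordinates are those of the deposited table.

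All genes passing filterByExpr were fitted in edgeR 4.0.16 (TMM, quasi-likelihood test, R 4.3.3) without covariates, and a gene was called where its p, adjusted after Benjamini and Hochberg over all tested genes, was under 0.05 and its log2 fold change exceeded 1 in size. DESeq2 1.42.0 and limma 3.58.1 were alternatives, as were another scaling, other filters, equal depth, background subtraction, the replicate block and leaving out single libraries. Nothing states that libraries came from separate animals, so p-values measure only the spread between these libraries. Log2 CPM used a prior count of 2, and ratios added 0.5 counts. The scripts were tested on simulated data. Recovery was required only at a dispersion (spread between libraries) lower than the common value of 0.805 fitted here. That test therefore does not tell how many true changes this fit would miss. Same-numbered libraries had deviations correlated at -0.21, 0.25, -0.08 and -0.003, so the numbers were not taken to pair them. The members and lists were chosen with earlier results of these data known. Named were the catalytic and activator subunits, the highest and lowest gene of each subcomplex, untested members, Nfe2l1, Nfe2l2, Tap1 and Tap2, and others where the text says so or a count of 5 or fewer needed them. Results without control replicate 1 for groups that do not overlap, the Psmb8 and Psmb9 to Psmb5 and Psmb6 ratio, and counts at the background were added after the data were seen. Promoters were read from GRCm39 with pysam 0.24.0, and figures drawn with matplotlib 3.10.9.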

Additional observations from a re-analysis of the deposited data

Results flagged for a closer look

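In 5 of the 66 groups of 4 libraries tested, 1 library lay far enough from the other 3 to pass Dixon's criterion at the 95% level, which chance alone passes in about 1 of 20 groups, or 3.3 of these. Psmd10, the assembly chaperone, was at a log2 CPM of 5.22 in control replicate 1 and between -0.33 and 0.24 in the other controls. The ubiquitin receptor Psmd4 was at 0.37 in control replicate 2 against 7.19 to 8.22 in the other controls. The lid subunit Psmd7 was at 0.98 in the same library against 6.2 to 7.23. In HADA, the alpha subunit Psma5 was at 5.38 in replicate 2 against 7.12 to 7.29, and the beta subunit Psmb4 at 4.19 in replicate 3 against 6.52 to 6.82. The causes were not tested.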

How the results depend on the processing

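Among the counts of calls, those of genes lower in HADA stayed at 0 under every alternative. The count of proteasome genes higher was 0 with edgeR, 7 with the DESeq2 test and 1 with limma on log2(CPM + 1), and 0 to 13 when single libraries were left out, the 13 without control replicate 1. The other pathway genes gave 0, 7 and 3, and 0 to 10 without single libraries, the 10 again without control replicate 1. Among all 21991 tested genes the DESeq2 test called 2457 higher and 4247 lower, and limma 814 and 76, in place of 363 and 105. Without control replicate 1, edgeR called 15.5% of 24048 genes higher and 19.7% lower. Over all genes the median log2 fold change moved to 1.0 after background subtraction, to -0.19 with DESeq2 size factors and to -0.37 without the filter. The replicate block gave 0 proteasome genes in either direction, 158 and 11 over all genes, and a median of 3.96 for the constitutive catalytic subunits. The median of the assembly chaperones was 1.21 to 3.32 without single libraries.

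Signs changed for 6 named genes, none of them past the thresholds in any alternative. Psme3 had 0.89 with limma, 1.7 with the replicate block and -1.14 to 0.71 without single libraries. Psmc4 had 0.88 with limma, 0.15 without the filter, 1.01 with the block and -0.42 to 0.76 without single libraries. Psmd4 had -0.049 with DESeq2 size factors and with the DESeq2 test, -0.47 with at least 10 counts in every library, -0.48 at equal depth, -0.52 after background subtraction and -0.28 to 0.59 without single libraries. Psmd7 had -0.18, -0.28 and -0.23 under the last 3 of these and -0.32 to 1.01 without single libraries. Psmb4 had -0.17 at equal depth and -0.42 after background subtraction. Tap2 had -0.039 at equal depth and -0.13 to 1.28 without single libraries. The mean log2 ratio of Psmb8 to Psmb5, HADA minus control, was -0.81 to 1.24 and that of Psmb9 to Psmb6 -1.22 to 1.17 without single libraries. The causes were not tested. Control replicate 1 limits the depth at equal totals, and no alternative recovers Psmb10, Psme2b or Foxp3.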
